A study of Mus musculus with 6 samples.

Results

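The genes described here are the interleukin receptors, the tumour necrosis factor (TNF) receptor superfamily and the TNF superfamily ligands of aged hippocampal microglia. They were chosen by symbol, as every row whose name begins with Il, a number and r, or with Tnfrsf or Tnfsf and a number. The rule found 53 of the 14148 genes in the table: 27 with an interleukin receptor symbol, 18 Tnfrsf genes and 8 Tnfsf genes. One of the 27, Il1rn, encodes a secreted antagonist and not a receptor.

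Cytokine receptors set what a cell can hear. Most interleukin receptors are assembled from a chain that binds the ligand and a chain shared between several receptors, and pass the signal on through JAK kinases and STAT transcription factors. Receptors of the interleukin-1 and interleukin-17 families signal through adaptor proteins towards NF-kB, and TNF receptors signal through TRAF adaptors or death domains towards NF-kB or cell death. Microglia, the resident macrophages of the brain, are known for responses to TNF, to interleukin-1 and to the restraining cytokine interleukin-10.

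RNA was sequenced from microglia of male C57BL/6 mice aged 18 months, with 3 lipid droplet-high (LD-high) and 3 lipid droplet-low (LD-low) libraries. The fractions were separated by BODIPY, a dye of neutral lipid, within live cells that carry CD11b and little CD45, and about 10000 cells were sorted per sample. Each sample pooled hippocampi of 3 mice, all untreated as far as the labels say. Values are normalized counts, that is, reads per gene divided by 1 size factor per library, and the libraries held between 15895576 and 38489448 reads in genes.

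The microglial identity of both fractions was checked first. P2ry12, a receptor for purines typical of microglia, lay between 186721 and 211903 normalized counts in LD-high libraries and between 197187 and 206611 in LD-low libraries, and none of the 12 microglia markers passed the test. Of these, Cx3cr1, the fractalkine receptor gene, had a log2 difference of -0.34 ± 0.11 (adjusted p 0.115), and Aif1, the gene of IBA1, had one of 0.17 ± 0.06 with LD-high values wholly above LD-low values (adjusted p 0.133). Markers of some other cells differed between the fractions. All 8 neutrophil markers in the table had 0 reads in the LD-high libraries, while their summed level in LD-low libraries lay between 1236 and 4576 normalized counts. The choroid plexus sum tended the other way but overlapped, with 714 to 2226 in LD-high libraries and 121 to 751 in LD-low libraries. Of the 5 choroid plexus markers tested, Kl and Ttr were higher in LD-high libraries (limma, adjusted p 0.0248 and 0.0323). The other 3 did not pass. Oligodendrocyte markers summed to 5452 to 6013 in LD-high and 4641 to 4894 in LD-low libraries. Astrocyte markers summed to 7974 to 8839 in LD-high and 6480 to 7837 in LD-low libraries. Most of that was Slc1a3, with 7892, 8813 and 8684 in LD-high and 7389, 7742 and 6419 in LD-low libraries. The other astrocyte markers were low. Gfap had means of 5.27 in LD-high and 14.4 in LD-low libraries, and Aqp4 0 and 3.30. Slc1a2 (4.83 and 6.27) and Aldh1l1 (32.3 and 43.2) were also lower in LD-high libraries, and Gja1 (5.21 and 4.07) was not. Neither the oligodendrocyte nor the astrocyte sum overlapped between the groups, and no tested gene of either list passed. In bulk samples such as these, fewer cells of a type and less RNA per cell cannot be told apart.

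Of the 53 genes, 38 passed the filter on low values (at least 10 normalized counts in at least 3 libraries). One of the 38, Il7r, was lower in LD-high microglia and none was higher at an adjusted p under 0.05 (limma, Benjamini-Hochberg over 11624 genes). That is 2.63% of the tested members, against 3.36% of all tested genes, of which 1.53% were higher and 1.82% lower. An unadjusted p under 0.05 was reached by 8 members, beside 19.8% of all tested genes, and DESeq2 on the recovered reads called 3, against 6.27% of all genes. Values were separate between the fractions for 7 members, or 18.4% of those tested, against 24.3% of all tested genes. LD-high lay above in 1 of them, where the share over all genes was 12.7%, and below in 6, where it was 11.7%. The log2 difference (LD-high minus LD-low) was below 0 for 27 of the 38 (29 with equal totals and 25 with quantile normalization), or 71.1%, with a median of -0.15, beside 51.3% and a median of -0.01 over all tested genes. With 1 library left out, 23 to 28 lay below 0, and the median was -0.08 without LD-high replicate 3 and -0.10 without LD-low replicate 1. The median size of the difference, whatever its sign, was 0.19 for the members and 0.14 for all tested genes. These shares are a description: the members that passed the filter are not all members, and their differences are not independent of each other.

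**Figure D1:**
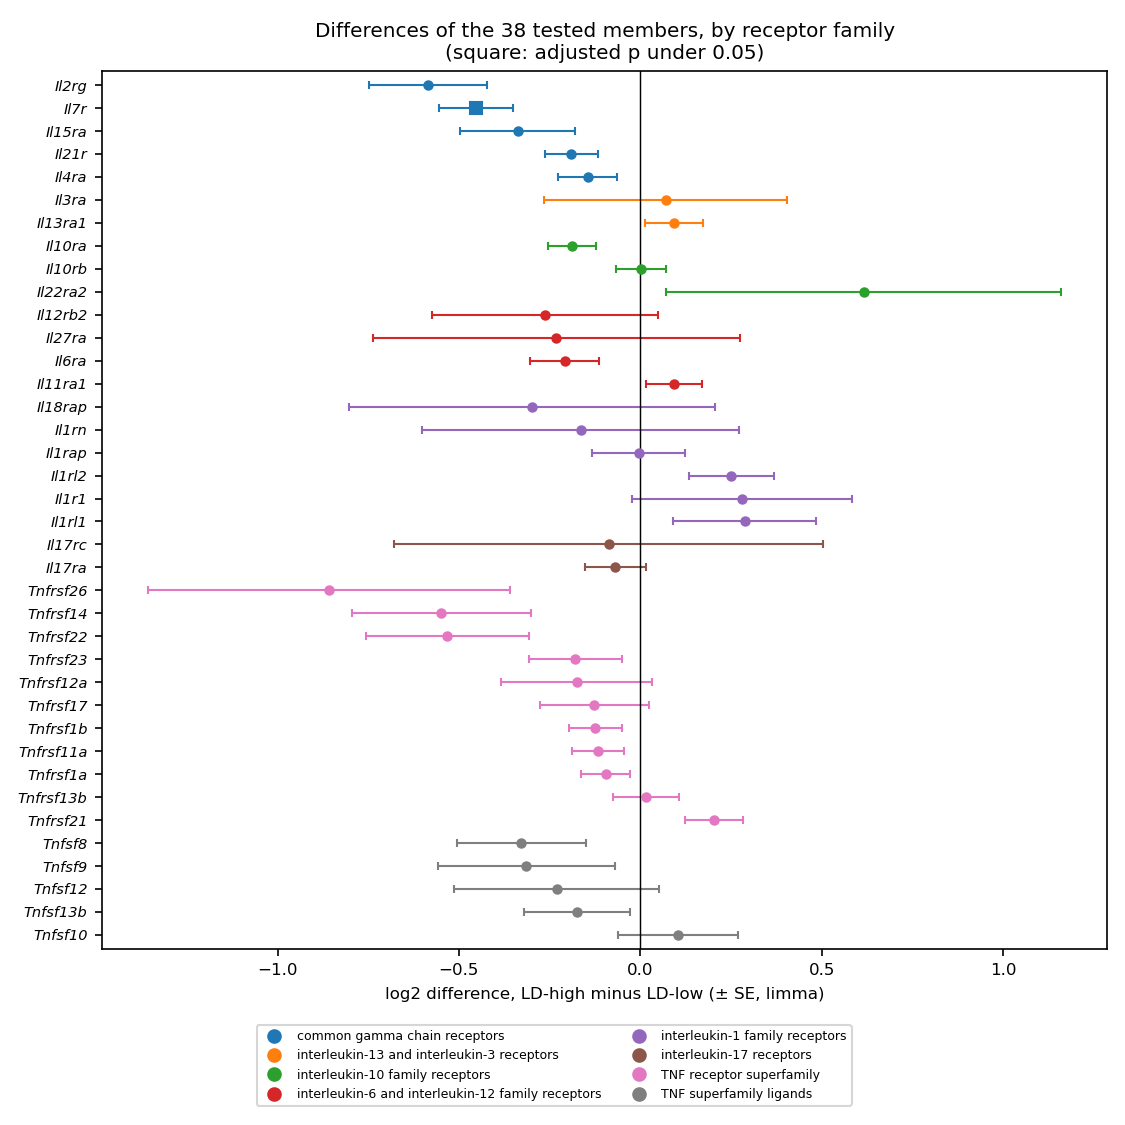
Log2 difference between LD-high and LD-low libraries for the 38 tested members (x axis, limma estimate ± SE), grouped and coloured by receptor family. The square marks Il7r, the member with an adjusted p under 0.05. Of the 38 members, 27 lie below 0, among them all 5 common gamma chain receptor genes.

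The levels of the receptors themselves spanned a wide range, compared here per kilobase of annotated exon. Il10ra, the ligand-binding chain of the interleukin-10 receptor, was the most abundant, with means of 8704 normalized counts per kb in LD-high and 9912 in LD-low libraries. It ranked 92 among 12949 annotated genes of the table. Tnfrsf1b, which encodes TNF receptor 2, came next with 5762 and 6275 per kb in LD-high and LD-low libraries. Tnfrsf21, which encodes death receptor 6, followed with 4874 and 4239 per kb. Il13ra1, Il21r, Il17ra, Il10rb, Il6ra, Tnfrsf1a and Il4ra had 6-library means between 2154 and 3421 per kb. Few receptors thus made up most of the signal: 10 genes held 90.7% of the family's normalized counts. At the other end, 27 of the 53 genes had a mean below 100 normalized counts.

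**Figure D2:**
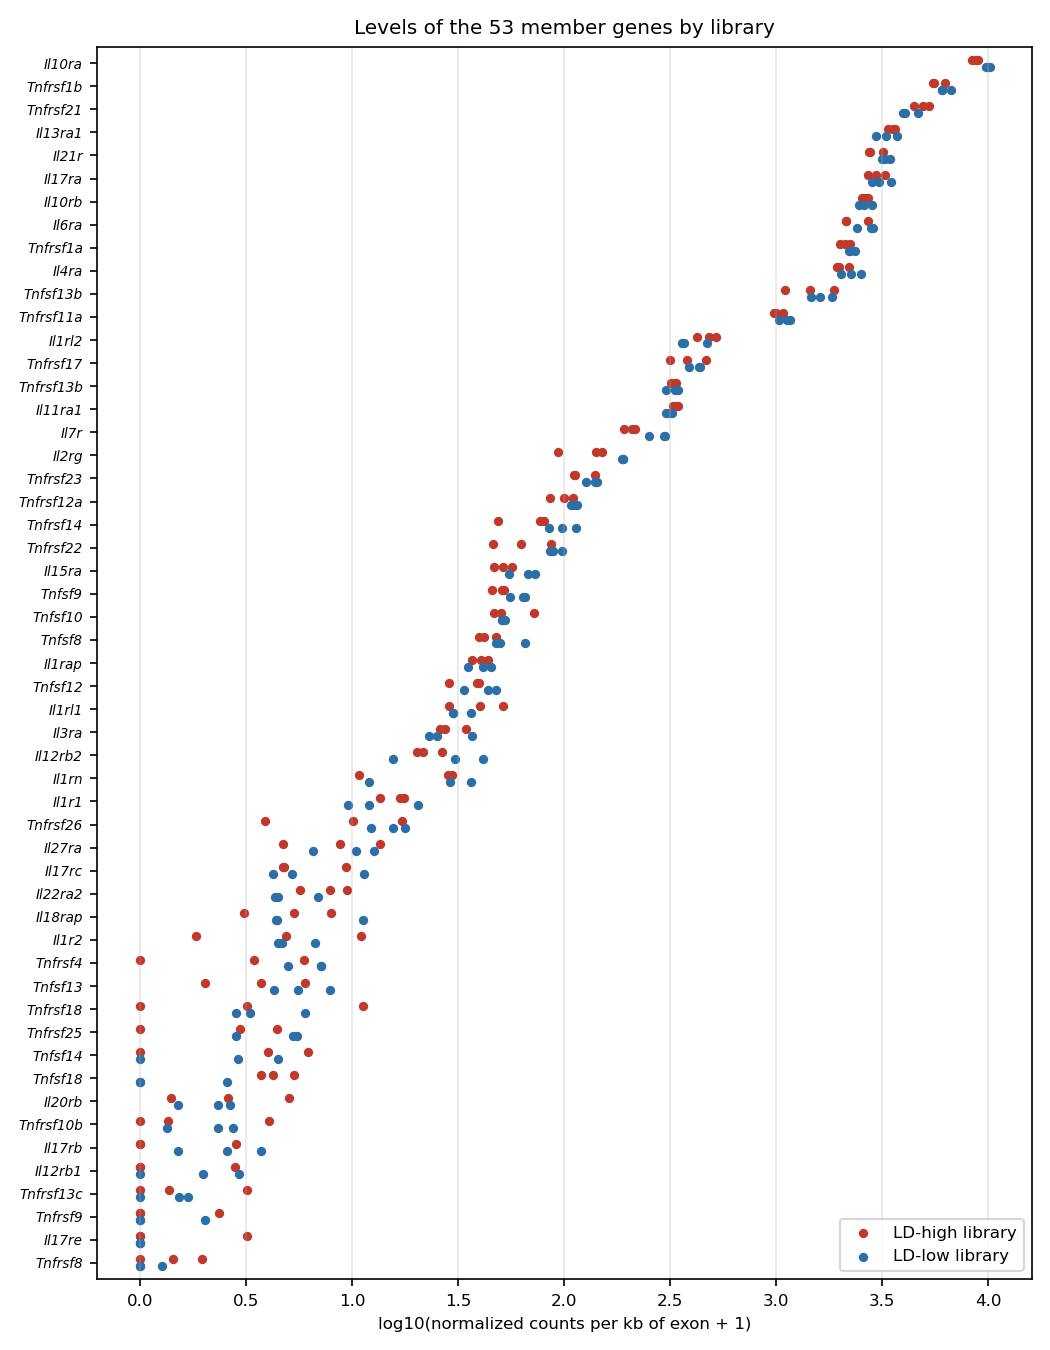
Level of each of the 53 member genes in each library, as log10 of normalized counts per kb of exon plus 1 (x axis), with LD-high libraries in red and LD-low libraries in blue. The order runs from Il10ra at the top, near 4 on this scale, to genes with 0 reads in several libraries at the bottom.

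The receptors built on the common gamma chain had log2 differences below 0 in 5 of 5 genes, beside 71.1% of tested members and 51.3% of all tested genes. Of the 5, 1 passed the test, beside 3.36% of all tested genes. With 5 genes these shares are a description. The direction was not particular to this group. Differences also lay below 0 for 9 of 11 tested Tnfrsf genes, and for 14 of 15 tested genes of the same families with other symbols. The common gamma chain is a subunit shared by the receptors for interleukins 2, 4, 7, 9, 15 and 21, and its genes in this table are Il2rg, which encodes the chain, and Il7r, Il21r, Il4ra and Il15ra, which encode chains that bind the ligand. The 5 differences lay between -0.59 and -0.15, with a median of -0.34.

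Il7r encodes the alpha chain of the interleukin-7 receptor, known for its part in lymphocyte survival. It lies on chromosome 15 from 9435916 to 9459631 (mm9, minus strand). The LD-high libraries held 614, 688 and 668 normalized counts, against 943, 801 and 960 in the LD-low libraries. The highest LD-high library thus lay below the lowest LD-low library. The means were 656 ± 38.2 in LD-high and 901 ± 87.1 in LD-low libraries (SD, n = 3 each), and Il7r fell by 0.45 on the log2 scale, with an SE of 0.10, a 95% interval of -0.67 to -0.24 and an adjusted p of 0.0291. The spread from counting alone was smaller, with a Poisson SD between 21.4 and 33.4 normalized counts per library. In the 6 fits that left out 1 library each, the difference stayed between -0.54 and -0.41 and the adjusted p was under 0.05 in 1 of them, with LD-low replicate 2 set aside (0.0398). Setting aside LD-low replicate 1 or 3 gave 0.0698 or 0.139. Setting aside LD-high replicate 1, 2 or 3 gave 0.0730, 0.0517 or 0.0742, so leaving out any of these 5 libraries ended the call.

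Il2rg is the gene of the common gamma chain itself (chromosome X, 98459717 to 98463594, mm9). It overlaps the gene Gm20489 on the same strand in the annotation, and reads there could count for either. The LD-high libraries held 358, 221 and 336 normalized counts, and the LD-low libraries held 448.4, 448.2 and 447.7. No LD-high value reached an LD-low value. The log2 difference was -0.59 ± 0.16 (SE) with an adjusted p of 0.0616 (limma), so it did not pass. It was -0.37 without LD-high replicate 2, the lowest library. The LD-low SD of 0.346 was far below the Poisson SD of at least 17.7 normalized counts per library there, so the closeness of those 3 values is not a measure of their precision. DESeq2 on the recovered reads called it (adjusted p 0.0257), as did limma without LD-high replicate 1 (0.0403). It was also called in a fit that paired libraries by replicate number, a pairing that the labels do not state.

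The promoters of Il7r, Il2rg and Il21r, the common gamma chain genes with an unadjusted p under 0.05, are shown to give the sequence around their starts. They come from RefSeq (build GRCm38.p6) and run from 250 bases before to 50 after the annotated start, 5′ to 3′ on the gene's strand. Capitals mark matches, on either strand, to the ETS motifs AGGAAGT and CCGGAAG, the RUNX motif TGTGGT and the STAT motif TTCNNNGAA. ETS, RUNX and STAT proteins are families of transcription factors active in blood cells.
Il7r, chr15:9529827-9530126, minus strand: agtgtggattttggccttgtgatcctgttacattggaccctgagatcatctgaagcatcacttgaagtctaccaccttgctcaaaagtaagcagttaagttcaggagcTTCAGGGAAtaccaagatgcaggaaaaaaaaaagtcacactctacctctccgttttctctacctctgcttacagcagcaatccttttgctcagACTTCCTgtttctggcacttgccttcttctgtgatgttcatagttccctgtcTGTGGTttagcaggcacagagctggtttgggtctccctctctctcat
Il2rg, chrX:101268206-101268505, minus strand: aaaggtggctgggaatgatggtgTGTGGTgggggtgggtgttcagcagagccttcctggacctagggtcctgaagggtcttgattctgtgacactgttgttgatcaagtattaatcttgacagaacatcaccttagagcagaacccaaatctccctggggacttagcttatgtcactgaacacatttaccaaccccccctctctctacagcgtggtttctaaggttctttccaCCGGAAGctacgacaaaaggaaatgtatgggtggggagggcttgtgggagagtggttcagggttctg
Il21r, chr7:125603179-125603478, plus strand: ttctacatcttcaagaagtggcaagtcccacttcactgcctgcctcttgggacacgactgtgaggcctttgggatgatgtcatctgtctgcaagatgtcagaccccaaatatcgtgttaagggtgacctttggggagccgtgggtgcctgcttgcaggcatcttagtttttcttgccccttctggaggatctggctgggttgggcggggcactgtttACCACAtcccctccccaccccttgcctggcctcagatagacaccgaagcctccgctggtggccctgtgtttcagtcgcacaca

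The Il7r window held a STAT match at bases 109 to 117, an ETS match at bases 202 to 208 and a RUNX match at bases 254 to 259, counted from 1 at its 5′ end. The Il2rg window held a RUNX match at bases 24 to 29 and an ETS match at bases 234 to 240, and the Il21r window a RUNX match at bases 218 to 223. Of all 32851 promoter windows in the RefSeq table, 16.8% held the RUNX motif, 9.35% AGGAAGT, 8.86% CCGGAAG and 8.30% the STAT motif. The motifs were chosen after these sequences were seen, so setting the matches beside those shares is no test of enrichment. The matches are letters in a window, and nothing about binding was measured.

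Il21r, the interleukin-21 receptor chain, was the most abundant of the group per kilobase of exon. It had 8278, 7141 and 7243 normalized counts in LD-high libraries, against 9022, 8246 and 8549 in LD-low libraries. One LD-high library, replicate 1, lay just above the lowest LD-low library, and the log2 difference of -0.19 ± 0.07 did not pass (adjusted p 0.163). The fit paired by replicate number called Il21r. Il15ra, which presents interleukin-15, had 189, 208 and 229 normalized counts in LD-high libraries and 275, 298 and 223 in LD-low libraries, with overlap between the groups and an adjusted p of 0.253. Il4ra, the chain that binds interleukin-4 and also serves the interleukin-13 receptor, had 11276, 10164 and 9966 in LD-high libraries and 12877, 11565 and 10376 in LD-low libraries. Its groups overlapped too (log2 difference -0.15 ± 0.08, adjusted p 0.341). Il13ra1, the partner of Il4ra for interleukin-13, had a log2 difference of 0.09 ± 0.08. The interleukin-3 receptor gene Il3ra had one of 0.07 ± 0.33 at a mean of 39.6 in LD-high and 38.2 in LD-low libraries.

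**Figure D3:**
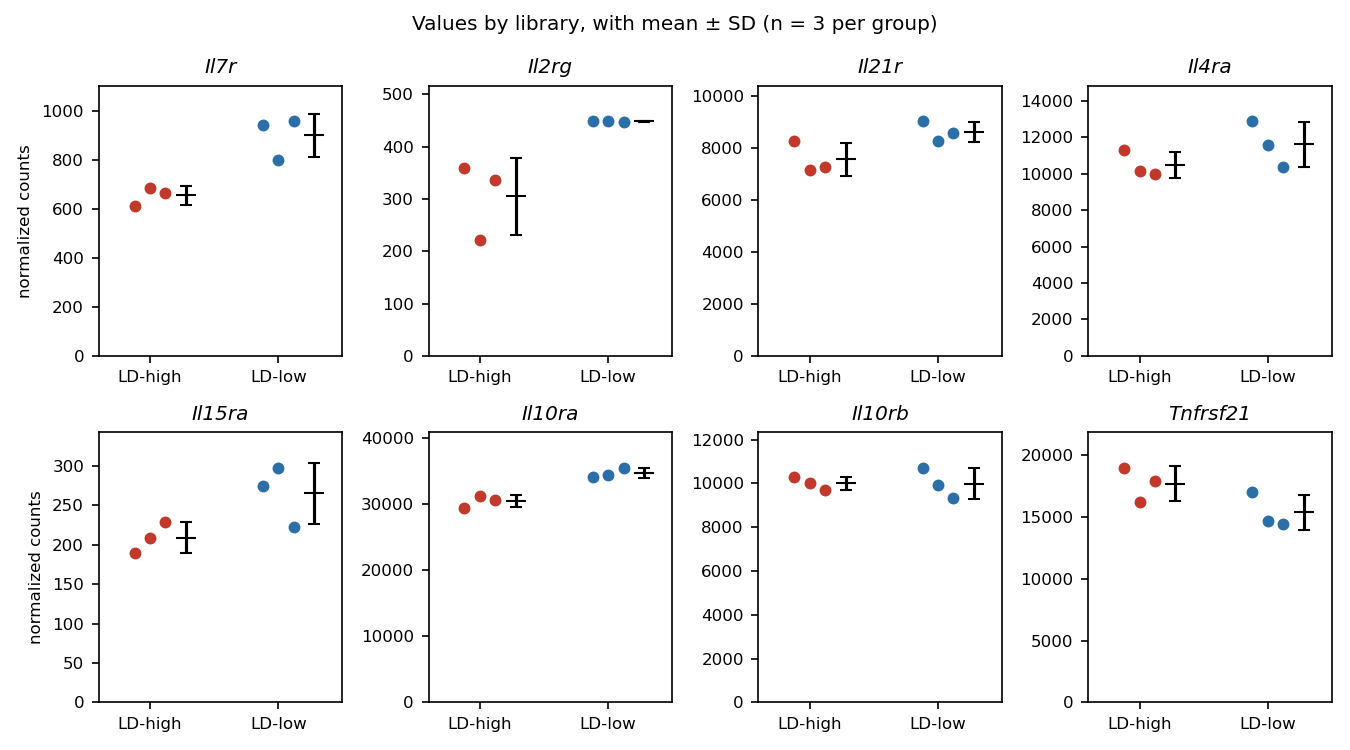
Normalized counts (y axes, from 0) in each LD-high library (red) and LD-low library (blue) for the 5 common gamma chain receptor genes, both interleukin-10 receptor chains and Tnfrsf21, with mean ± SD (n = 3 each). LD-high and LD-low points do not overlap for Il7r, Il2rg and Il10ra, and they overlap for the other 5 genes.

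T and natural killer cells also use Il7r and Il2rg, and a few of their transcripts were present. Of 19 listed T and NK cell markers, 7 had a row among the genes analysed. These 7 summed to between 110 and 118 normalized counts in LD-high libraries and between 136 and 217 in LD-low libraries. This sum did not overlap between the groups. Klrd1, an NK cell lectin, was the most abundant of them, with 47.0 to 60.1 in LD-high and 77.2 to 132 in LD-low libraries (adjusted p 0.0679). Without Klrd1 the other 6 summed to 58.1, 62.7 and 53.4 in LD-high and 58.9, 52.0 and 85.5 in LD-low libraries, which overlapped. The T cell receptor complex genes Cd3d, Cd3e and Cd3g had no row among the genes analysed, and Cd4 had 8.19, 13.4 and 0 in LD-high libraries and 0 in all 3 LD-low libraries. In LD-low replicates 1, 2 and 3 the sum of all 7 was 136, 167 and 217, beside 943, 801 and 960 normalized counts of Il7r. Monocyte and dendritic cell markers summed to 592 to 720 in LD-high and 911 to 1469 in LD-low libraries. Chil3 alone had 0 in all LD-high libraries and 123, 172 and 506 in LD-low libraries (limma, adjusted p 3.65e-06). The other 7 tested markers of this list did not pass. Of the 8 tested, 6 had differences below 0 and 2, Flt3 and Xcr1, above 0. Neutrophil markers were also lower in LD-high libraries, as given above. The part of these cells in the Il7r and Il2rg differences was not tested.

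**Figure D4:**
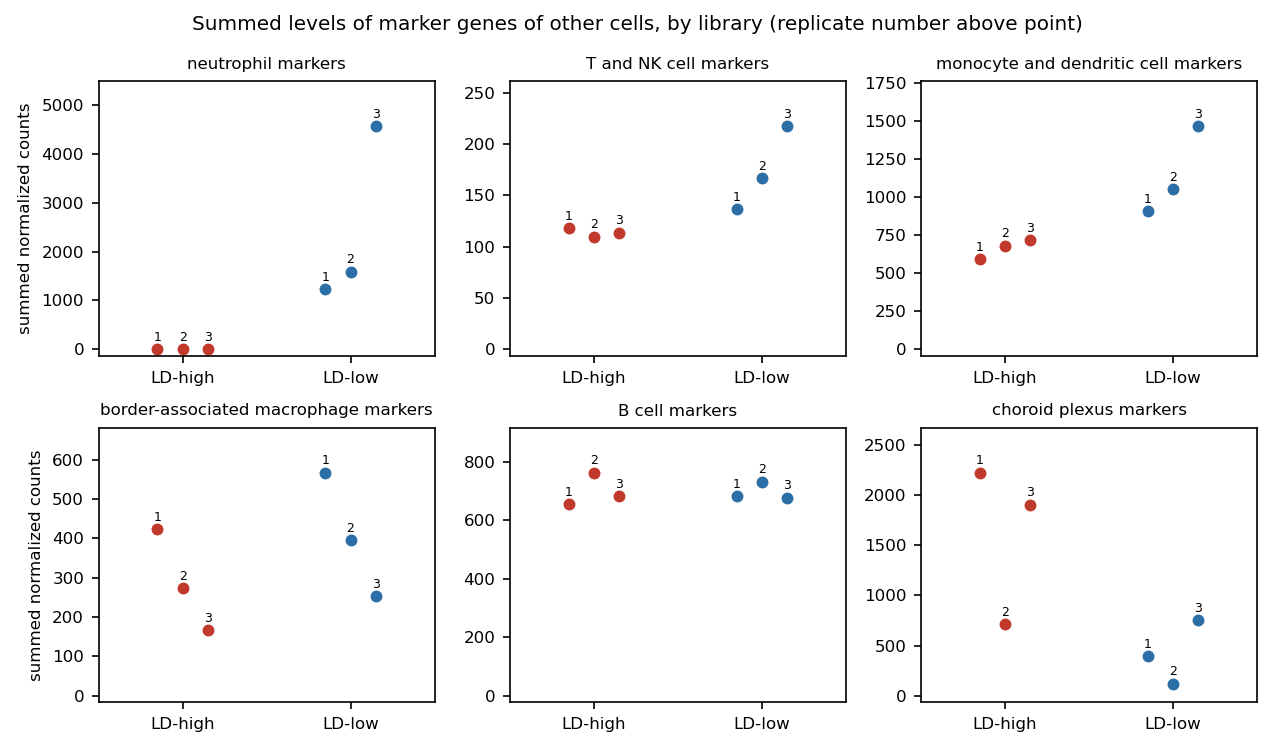
Summed normalized counts (y axes, from 0) of marker genes of 6 other cell types in each LD-high (red) and LD-low (blue) library, with the replicate number above each point. Neutrophil, T and NK cell, and monocyte and dendritic cell sums are lower in every LD-high library than in any LD-low library. The other 3 sums shown overlap. Oligodendrocyte and astrocyte sums, which are not shown, were higher in every LD-high library than in any LD-low library. The astrocyte sum was mostly Slc1a3.

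Neither interleukin-10 receptor chain passed the test. Il10ra had 29428, 31212 and 30643 normalized counts in LD-high libraries and 34077, 34388 and 35488 in LD-low libraries. These groups did not overlap, but the difference was small, -0.19 ± 0.07 on the log2 scale, and its adjusted p was 0.132. It was called by DESeq2 (0.0343), with libraries scaled to equal totals (0.0446) and in the fit paired by replicate number. Il10rb, the shared chain that completes the interleukin-10 receptor, had 10303, 9999 and 9679 in LD-high libraries and 10714, 9928 and 9332 in LD-low libraries. Its difference was 0.00 ± 0.07, with a 95% interval of -0.14 to 0.15. Whether the chains differed from each other was not tested. Il10rb overlaps Ifnar2 on the same strand in the annotation, and reads there could count for either gene. Il22ra2, a secreted decoy for interleukin-22, was near the filter, with 17.1, 21.3 and 11.7 in LD-high and 14.7, 8.66 and 8.36 in LD-low libraries.

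Receptors of the interleukin-6 and interleukin-12 family gave no call. Il6ra, the chain that binds interleukin-6, had 9100, 7106 and 7143 normalized counts in LD-high libraries, against 8010, 9548 and 9317 in LD-low libraries. Replicate 1 ran the other way from the rest in both groups, and the log2 difference was -0.21 ± 0.10 (adjusted p 0.238) and -0.33 without LD-high replicate 1. Il11ra1, the interleukin-11 receptor chain, was the one interleukin receptor gene whose LD-high values all lay above the LD-low values, with 1455, 1534 and 1503 against 1413, 1444 and 1351. That difference was 0.09 ± 0.08 (adjusted p 0.529), and the locus overlaps several other genes in the annotation, so its counts are uncertain. The libraries do not mark strand, so for this and other overlapping genes reads of either strand cannot be told apart. The interleukin-12 receptor chain Il12rb2 had log2 difference -0.26 ± 0.31 and the interleukin-27 receptor Il27ra -0.23 ± 0.51, both at means of 107 or less.

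Interleukin-1 family receptors were mostly low, and none of 6 tested members passed. Il1rl2, the receptor for interleukin-36, was the most abundant of them. It had 935, 823 and 1008 normalized counts in LD-high libraries and 699, 716 and 921 in LD-low libraries, a log2 difference of 0.25 ± 0.12 (adjusted p 0.253) that was 0.38 without LD-low replicate 3. Il1rl1, which encodes the interleukin-33 receptor ST2, had 349, 190 and 269 in LD-high and 200, 199 and 245 in LD-low libraries. LD-high replicate 1 was the highest and LD-high replicate 2 the lowest of all 6, so the groups overlapped (0.29 ± 0.20, adjusted p 0.439). Leaving out LD-high replicate 1 or 2 gave a difference of 0.08 or 0.52. The accessory chain Il1rap, which both receptors need, had means of 447 ± 40.9 in LD-high and 450 ± 56.0 in LD-low libraries (SD, n = 3 each). Its 95% interval ran from -0.28 to 0.27. The signalling receptor Il1r1 had 84.2, 63.8 and 80.1 in LD-high and 98.2, 43.3 and 55.7 in LD-low libraries. The decoy receptor Il1r2, which neutrophils also make, stayed between 1.12 and 13.4 in all 6 libraries and was not tested. Il18rap, the accessory chain of the interleukin-18 receptor, had 14.2, 29.1 and 46.7 in LD-high and 23.2, 22.7 and 69.7 in LD-low libraries, with replicate 3 highest in both. The antagonist Il1rn had 87.9, 31.4 and 91.8 in LD-high and 113, 89.9 and 35.3 in LD-low libraries, with 1 low library in each group. Of the interleukin-17 receptors, the shared chain Il17ra was abundant, with 12922, 10783 and 11699 in LD-high and 13760, 12083 and 11304 in LD-low libraries (-0.07 ± 0.08). The chains that pair with it were low: Il17rc had at most 27.9 normalized counts in a library, Il17rb at most 7.43, and Il17re had reads in 1 library.

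TNF receptors made up the other large share of the family, and none of 11 tested members passed. Tnfrsf1b, TNF receptor 2, had 23830, 21014 and 21159 normalized counts in LD-high and 25425, 23248 and 23206 in LD-low libraries, and Tnfrsf1a, TNF receptor 1, had 5824, 5490 and 5194 in LD-high and 6109, 5720 and 5791 in LD-low libraries. Their log2 differences were -0.12 ± 0.07 and -0.10 ± 0.07, with 95% intervals of -0.28 to 0.03 and -0.24 to 0.05. Tnfrsf21, death receptor 6, had the smallest p among members above 0. It had 18978, 16168 and 17878 in LD-high libraries, against 17007, 14655 and 14451 in LD-low libraries. LD-high replicate 2 lay below LD-low replicate 1 (0.20 ± 0.08, adjusted p 0.178). The fit paired by replicate number called Tnfrsf21 (limma, adjusted p 0.0244). Tnfrsf11a, which encodes RANK, had 5423, 5020 and 4909 in LD-high and 5639, 5161 and 5851 in LD-low libraries (adjusted p 0.384).

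The lower members of the TNF receptor family varied more between libraries. Tnfrsf14, the herpesvirus entry mediator, had 91.6, 88.5 and 55.1 normalized counts in LD-high and 97.5, 112 and 130 in LD-low libraries. It was the one Tnfrsf gene without overlap between the groups (-0.55 ± 0.25, adjusted p 0.233; -0.32 without LD-high replicate 3). Tnfrsf22, Tnfrsf23 and Tnfrsf26 lie side by side on chromosome 7. Their sequences were not compared here, so whether reads could be split between them is not known. Tnfrsf22 and Tnfrsf23 encode decoy receptors for the ligand TRAIL. Tnfrsf22 had 80.4, 110 and 152 in LD-high libraries and 152, 173 and 156 in LD-low libraries, with a log2 difference of -0.53 ± 0.22 (adjusted p 0.205) that was -0.31 without LD-high replicate 1. The values of Tnfrsf26, between 8.96 and 50.1 in LD-high and 35.1 and 52.0 in LD-low libraries, overlapped. Tnfrsf23 had 468, 374 and 369 in LD-high libraries and 478, 422 and 465 in LD-low libraries, with overlap as well. Tnfrsf12a, which encodes Fn14, the receptor of TWEAK, had a log2 difference of -0.18 ± 0.21 and overlaps Hcfc1r1 on the opposite strand.

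Receptors of the BAFF and APRIL system, best known from B cells, were present at unlike levels. Tnfrsf13b, which encodes TACI, had 948, 899 and 953 normalized counts in LD-high and 976, 948 and 852 in LD-low libraries, a difference of 0.01 ± 0.09. Tnfrsf17, which encodes BCMA, had 309, 382 and 257 in LD-high and 356, 317 and 350 in LD-low libraries. Tnfrsf13c, the BAFF receptor, had 8 reads over all 6 libraries. Of 8 B cell markers, Cd79a and Cd79b had a row among the genes analysed. Cd79a had 0 to 11.7 in LD-high and 2.17 to 10.5 in LD-low libraries, and Cd79b had 650 to 764 in LD-high and 671 to 731 in LD-low libraries. The part of B cells in these levels was not tested. The ligand gene Tnfsf13b, BAFF itself, had 1834, 1072 and 1418 in LD-high and 1796, 1423 and 1569 in LD-low libraries, with replicate 1 highest in both groups (-0.17 ± 0.15, adjusted p 0.541; -0.37 without LD-high replicate 1). Tnfsf13, the gene of APRIL, had 1.67 to 8.19 in LD-high and 5.41 to 11.2 in LD-low libraries and was not tested.

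None of the 5 TNF superfamily ligands tested, Tnfsf13b included, passed, and the others were low to moderate. Tnfsf8, the CD30 ligand, had 177, 147 and 155 normalized counts in LD-high libraries and 244, 185 and 177.4 in LD-low libraries, against 177.3 in the highest LD-high library, so the groups were separate by a margin far below counting error. Tnfsf9, the 4-1BB ligand, had 62.6, 61.6 and 55.1 in LD-high and 77.9, 79.0 and 66.9 in LD-low libraries, also without overlap. Their log2 differences were -0.33 ± 0.18 and -0.31 ± 0.25, with adjusted p values of 0.324 and 0.509, and that of Tnfsf8 was -0.19 without LD-low replicate 1. Their receptors, Tnfrsf8 and Tnfrsf9, had 6 and 8 reads over all 6 libraries. Tnfsf10, the gene of TRAIL, had 375, 240 and 260 in LD-high and 262, 273 and 264 in LD-low libraries, with LD-high replicate 1 apart from the other 5. Tnfsf12, the gene of TWEAK, had a log2 difference of -0.23 ± 0.28, and its locus is joined to that of Tnfsf13 in the annotation.

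Of the 53 genes, 15 did not pass the filter. They were Il1r2, Il12rb1, Il17rb, Il17re, Il20rb, Tnfrsf4, Tnfrsf8, Tnfrsf9, Tnfrsf10b, Tnfrsf13c, Tnfrsf18, Tnfrsf25, Tnfsf13, Tnfsf14 and Tnfsf18, and each had between 6 and 48 reads over the 6 libraries. A count of 0 in a library allows up to 3 reads, or 2.11 to 5.01 normalized counts depending on depth. Tnfsf18, the ligand of GITR, was the one gene among them whose groups did not overlap, with 8.94, 5.60 and 6.68 in LD-high and 0, 3.25 and 0 in LD-low libraries. It was named after its values were seen, and 24 reads in all cannot carry a fold change. None of the 15 genes was tested for a difference.

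Genes that act with these receptors gave 2 calls among 87 tested, or 2.30%, beside 3.36% of all tested genes. Jak1, the kinase that common gamma chain, interleukin-6 and interleukin-10 receptors share, was higher in LD-high microglia, with 14492, 13403 and 14441 normalized counts against 12447, 11563 and 11279 in LD-low libraries. Every LD-high value lay above every LD-low value, and Jak1 rose by 0.26 ± 0.07 on the log2 scale (adjusted p 0.0447). Tnip2, whose product restrains NF-kB signalling, had 1362, 1452 and 1394 in LD-high libraries and 1654, 1839 and 1734 in LD-low libraries, and fell by 0.31 on the log2 scale (SE 0.08, adjusted p 0.0428). Both calls were lost in 5 of the 6 fits that left out 1 library and held without LD-low replicate 1, and edgeR on the recovered reads kept 1 of them, Tnip2, with 0.0529 for Jak1.

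Of 10 JAK and STAT genes, Jak1 rose and the other 9 missed the threshold; the list's median was 0.09 on the log2 scale. Stat3, Jak3, Stat5b and Stat6 also had LD-high values wholly above the LD-low values, which made 5 of 10 without overlap, against 24.3% of all tested genes; of these Stat3 had a difference of 0.20 ± 0.07 (adjusted p 0.136). None of 11 SOCS and STAT feedback genes passed, and their median was -0.12. Socs3, which ends JAK signalling at the interleukin-6 receptor, had the smallest p, with 1026, 884 and 893 normalized counts in LD-high and 1256, 1164 and 1084 in LD-low libraries (-0.32 ± 0.09, adjusted p 0.0749). Of 8 NF-kB feedback genes, Tnip2 fell and 7 did not pass. All 8 lay below 0, with a median of -0.17, beside 66.7% of all tested pathway genes and 51.3% of all tested genes. None of 14 interleukin-1 and interleukin-17 signalling genes passed, with Tollip, an inhibitor of interleukin-1 receptor signalling, nearest at 0.26 ± 0.07 (adjusted p 0.0525). None of 22 TNF receptor signalling genes passed, and the median was -0.00. Ikbkg, the regulatory subunit of the IkB kinase, had the smallest p there (0.23 ± 0.07, adjusted p 0.0832).

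Receptors and ligands of the same families that carry other symbols gave no call among 15 tested, with a median of -0.15. The nearest was Csf2ra, the GM-CSF receptor alpha chain, with 1122, 1128 and 1267 normalized counts in LD-high libraries and 1415, 1402 and 1667 in LD-low libraries (-0.35 ± 0.09, adjusted p 0.0525). Of 7 interleukin ligands tested none passed, and the smallest p belonged to Il6, with 218, 169 and 187 in LD-high and 267, 217 and 255 in LD-low libraries (-0.36 ± 0.16, adjusted p 0.223). The values of the 2 groups overlapped there, with LD-high replicate 1 just above LD-low replicate 2.

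**Figure D5:**
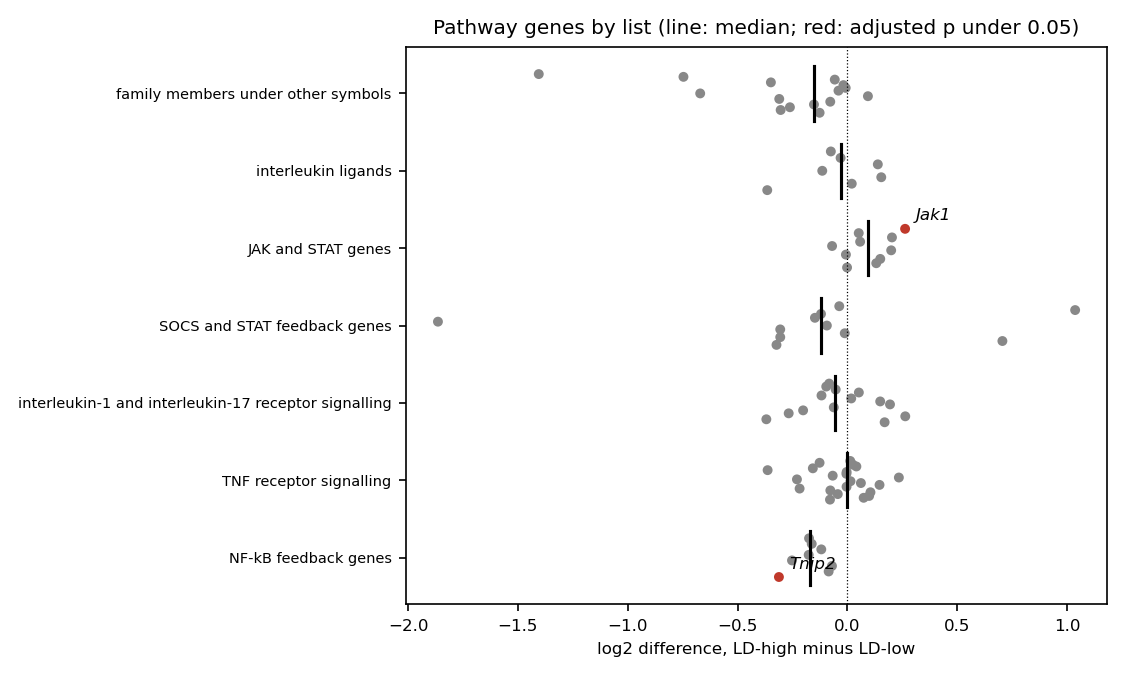
Log2 difference between LD-high and LD-low libraries (x axis) for each tested gene of the 7 pathway lists, with the list median as a line. Jak1 and Tnip2, in red, are the genes with an adjusted p under 0.05, at 0.26 and -0.31.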

How the data were processed

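The authors deposited 1 table of normalized signal, in which each gene's read counts are divided by a library's size factor. FastQC 0.11.4 assessed the reads, STAR 2.5.1b mapped them to mm9 and counted them per gene, and DESeq2 followed, per the labels' protocols; the annotation and strand setting were not given there. All values (100%) were whole multiples of a library's step within 0.01 reads, which recovered the reads. Differences were tested with limma 3.58.1 (R 4.3.3), 2-sided, on log2(value + 1) with a trended variance and Benjamini-Hochberg adjustment over 11624 genes; this scale understates changes of low genes. edgeR 4.0.16 and DESeq2 1.42.0 on recovered reads were alternatives. Simulated data for this comparison (11532 genes) gave back 59% of 100 genes shifted by 0.5 log2 units and 95% of 100 shifted by 1. Of the calls in these simulated data, 4.35% were false. The simulated libraries were drawn independently of each other, so that share is not a false-call rate for the real libraries. Genes of low level were left out when the shifted genes were drawn, so the recovered shares do not give the recovery of low genes. Low members had larger SEs in the main fit, with 0.59 for Il17rc, 0.54 for Il22ra2 and 0.33 for Il3ra, against 0.10 for Il7r. Coordinates and exon lengths come from GENCODE vM1 (NCBIM37, mm9), which matched 12949 symbols and all 53 members. RefSeq promoters (GRCm38.p6) were found for 42 members, and their motifs were chosen after the sequences were seen. Members and lists were chosen with earlier results of these data known. Full values were set for the 20 members with the smallest p and for pathway genes past the threshold or, where a list had none, first in it; Stat3, Jak3, Stat5b and Stat6 were named after their values were seen. Replicate numbers were not used to pair libraries in the main fit. Nothing says whether the pools hold different mice, so p-values may measure technical spread. Floors cover counting error only.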

Additional observations from a re-analysis of the deposited data

How the results depend on the processing

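The 18 alternatives left Il7r below 0 in LD-high libraries throughout, between -0.54 and -0.41 on the log2 scale, with adjusted p values from 0.00312 to 0.18. Beside the 5 single libraries named above, quantile normalization (0.0507) and a fit without the mean-variance trend (0.18) ended the call. The count of members called, 1, became 2 with equal totals, 3 with DESeq2, 0 with quantile normalization, 0 without the trend and 0 to 1 with 1 library left out, where the call without LD-high replicate 1 was Il2rg and not Il7r. The count over all genes, 390, became 252 with quantile normalization, 15 without the trend, 729 with DESeq2 and 52 to 421 with 1 library left out; it was 421, 82 and 52 on leaving out LD-low replicate 1, 2 or 3, and 231, 201 and 90 on leaving out LD-high replicate 1, 2 or 3. Genes higher in LD-high made up 45.6% of calls, 33.6% with equal totals, 6.67% without the trend, 51.6% with DESeq2, 51.4% with the block and 25.6% (without LD-low replicate 2) to 50.4% (without LD-low replicate 1) with 1 library left out. The 2 pathway calls became 4 with a filter of 50, 0 without the trend, 1 with edgeR, 8 with DESeq2 and 0 to 3 with 1 library left out. Fitted with a replicate block, 1090 genes, 5 members (Il7r, Il2rg, Il10ra and Il21r lower, Tnfrsf21 higher) and 10 pathway genes were called; same-numbered libraries had correlations of 0.161, 0.132 and 0.0641 and each correlated best with its own number, a hint from the data and not from the design. Of the named genes, 13 changed sign under some alternative, none of them called (lowest adjusted p 0.604), and the cause was not tested. The log2 differences that changed sign were, with equal totals, -0.028 for Tnfrsf13b, -0.041 for Il10rb; with quantile normalization, 0.027 for Il1rap, -0.054 for Il10rb, 0.0103 for Il1rn, 0.20 for Il17rc; with sample weights, 0.013 for Il1rap, -0.0054 for Il10rb; with edgeR on recovered reads, -0.0031 for Il10rb; with DESeq2 on recovered reads, -0.0015 for Il10rb. With 1 library left out, the differences ranged from -0.69 to 0.22 for Il18rap, -0.044 to 0.054 for Tnfrsf13b, -0.063 to 0.28 for Il3ra, -0.27 to 0.013 for Tnfrsf17, -0.10 to 0.076 for Il1rap, -0.046 to 0.054 for Il10rb, -0.66 to 0.33 for Il1rn, -0.092 to 0.23 for Tnfsf10, -0.67 to 0.053 for Il12rb2, -0.45 to 0.38 for Il17rc, -0.14 to 0.0101 for Il17ra, -0.37 to 0.021 for Tnfsf13b and -0.62 to 0.21 for Il27ra. The 15 members below the filter had 6 to 48 reads each over the 6 libraries.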
